A study of Mus musculus with 6 samples.

Results

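S100 proteins are small calcium-binding proteins of vertebrates, and 10 of their genes, S100a1, S100a4, S100a6, S100a8, S100a9, S100a10, S100a11, S100a13, S100a14 and S100a16, are described here in mouse salivary gland with and without induced RANKL. They were chosen by symbol, and all 10 were found among the 24054 genes of the count table, which held 17 S100 symbols in all. Messenger RNA was sequenced from 3 control and 3 K5-RANKL pools. K5-RANKL mice carry K5-rtTA, whose keratin 5 promoter makes an activator that needs doxycycline in basal-type epithelial cells, and TetO-RANKL, a RANKL transgene that the activator switches on. Controls carried 1 of the transgenes only; the sources used here do not say which. Mice of both groups were given doxycycline by food and water for 2 weeks, beginning when they were 9 weeks old, and each library was made from a pool of the glands of 5 mice, so that libraries are also called pools below. The sources also leave out strain, sex and which glands were taken, and p-values measure how pools differ.

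Most S100 proteins are dimers whose subunits each hold a pair of EF-hand loops. Binding of calcium opens a surface that docks onto target proteins such as annexins, myosin or ion pumps, and some members are also released from cells and signal through receptors such as RAGE (Ager) and Toll-like receptor 4. S100A8 and S100A9 form calprotectin, an antimicrobial protein abundant in neutrophils and inducible in stratified epithelia. S100A10 is unusual in that it no longer needs calcium and sits with annexin A2 at the plasma membrane.

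All 10 genes lie on chromosome 3 (GRCm38), in 2 blocks. The first block runs from 90511034 to 90695721 and holds S100a1, S100a13, S100a14, S100a16, S100a4, S100a6, S100a8 and S100a9, in that order. The second block, from 93520496 to 93564645, holds S100a11 and S100a10, and 2824774 bases lie between the blocks. S100a1 is read from the minus strand and S100a13 from the plus strand, and their annotated starts, at 90514330 and 90514435, are 105 bases apart, so both genes share 1 start region although their transcripts moved in opposite directions on the main scale (values below). The window of S100a13 is printed here for that reason, from 250 bases before its start to 50 after, on the plus strand (chr3:90514185-90514484, RefSeq, GRCm38.p6); the capitals mark the 104 bases between the starts of S100a1 and S100a13.
S100a1/S100a13 shared start: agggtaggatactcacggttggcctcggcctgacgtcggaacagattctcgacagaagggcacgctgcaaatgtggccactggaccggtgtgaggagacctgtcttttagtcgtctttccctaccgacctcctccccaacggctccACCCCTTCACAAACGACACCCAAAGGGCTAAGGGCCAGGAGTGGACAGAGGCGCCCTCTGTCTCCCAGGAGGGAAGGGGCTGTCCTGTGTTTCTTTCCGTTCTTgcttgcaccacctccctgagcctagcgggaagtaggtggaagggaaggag
The RefSeq gene model of S100a13 begins earlier, inside S100a1, with 98 shared bases, and since the strand setting of the counting is not given, reads of these bases cannot be assigned to 1 of the genes.

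The windows of S100a4, S100a6 and S100a11 are shown because these transcripts rose the most among the well-counted members with a RefSeq window. Capitals mark matches to a loose form of the NF-kB site (GGG and CC with any 5 bases between) or to TGANTCA, the AP-1 site, on either strand. The windows are chr3:90603520-90603819, chr3:90612644-90612943 and chr3:93520246-93520545, all on the plus strand (RefSeq, GRCm38.p6).
S100a4: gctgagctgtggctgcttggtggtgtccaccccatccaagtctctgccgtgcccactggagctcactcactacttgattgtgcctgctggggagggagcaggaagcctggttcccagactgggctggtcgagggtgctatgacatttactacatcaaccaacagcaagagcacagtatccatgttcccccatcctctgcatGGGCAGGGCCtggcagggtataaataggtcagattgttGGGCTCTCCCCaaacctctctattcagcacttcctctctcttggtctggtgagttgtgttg
S100a6: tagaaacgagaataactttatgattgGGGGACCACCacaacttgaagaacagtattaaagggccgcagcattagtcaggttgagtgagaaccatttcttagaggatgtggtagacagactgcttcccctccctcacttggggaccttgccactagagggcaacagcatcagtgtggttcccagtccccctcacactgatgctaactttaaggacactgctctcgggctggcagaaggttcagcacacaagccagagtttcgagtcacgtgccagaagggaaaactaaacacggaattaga
S100a11: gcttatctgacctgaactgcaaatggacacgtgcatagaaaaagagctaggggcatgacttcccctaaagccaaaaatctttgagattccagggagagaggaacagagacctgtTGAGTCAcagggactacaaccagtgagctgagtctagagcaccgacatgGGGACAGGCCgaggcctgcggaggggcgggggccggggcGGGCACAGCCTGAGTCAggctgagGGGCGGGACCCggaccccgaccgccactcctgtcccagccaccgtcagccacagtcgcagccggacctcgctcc
In RefSeq, 8 of the 10 members had a window, S100a16 with a pair of them, and the NF-kB letters were found in 7 of these 9 windows, beside 50.8% of all 32851 windows of 300 bases. The windows of S100a1 and S100a13 overlap, and their NF-kB matches are the same sites read from opposite strands, so these sites are counted in both. TGANTCA was found in 2 of the 9 (S100a11 and S100a16), beside 7.81% of all windows. The 2 matches of S100a11 both read TGAGTCA, and one of them follows directly on an NF-kB match. NF-kB matches overlap each other in S100a4, S100a11 and S100a16, and no match of 1 motif overlaps a match of another. TATAAA was found in 3 windows (S100a4, S100a8 and S100a9) and in 13.6% of all windows, TTGCNNAA, a C/EBP site, in that of S100a9 and in 10.8% of all, and TTCNNNGAA, a STAT site, in none of the 9 and in 8.30% of all. In S100a4 TATAAA lies 31 to 26 bases before the start and in S100a8 30 to 25 bases before. A match is a run of letters, not a measured site.

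Libraries held 13875951 to 17921815 counts, and Tnfsf11, encoding RANKL, stood at 0.939 to 3.78 CPM in control pools and 405 to 723 CPM in K5-RANKL pools. CPM are a gene's counts per 1000000 counts of effective library size, the library total corrected for composition by the TMM method. Transcripts of salivary acinar cells filled the controls, so the scaling matters: the 20 most abundant genes took 64.9 to 67.3% of the counts of control pools and 32.0 to 39.1% in K5-RANKL pools. With library totals as the only scaling, the 14044 genes tested had a median log2 fold change of 1.01, against 0.01 with TMM; directions are therefore given on the TMM scale, and those that turn are named. The gland's own markers were present in every library. All 9 acinar markers fell on the TMM scale, beside 32.1% of all genes tested, and 8 were called lower by library totals. The sum of the 9 went from between 582500 and 671600 CPM to between 115000 and 168800. In pooled tissue, fewer cells of a type and less RNA per cell cannot be told apart.

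S100 transcripts moved apart from each other. Of the 7 members that were above the low-count filter in every library, 5 rose (S100a4, S100a10, S100a11, S100a6 and S100a13), S100a1 fell (higher by library totals) and S100a16 did not pass the test (edgeR, adjusted p under 0.05), with a median log2 fold change of 1.39. Among all genes tested 66.2% were called, 34.2% higher and 32.1% lower, and their median was 0.01. The other 3 members, S100a14, S100a9 and S100a8, also rose, but they passed the filter only through the K5-RANKL pools, so that a gene with their counts could hardly pass without a difference. The groups did not overlap for 9 of the 10 members, S100a16 being the exception, where 70.4% of all genes tested had no overlap, 36.3% with higher and 34.1% with lower K5-RANKL pools.

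**Figure D1:**
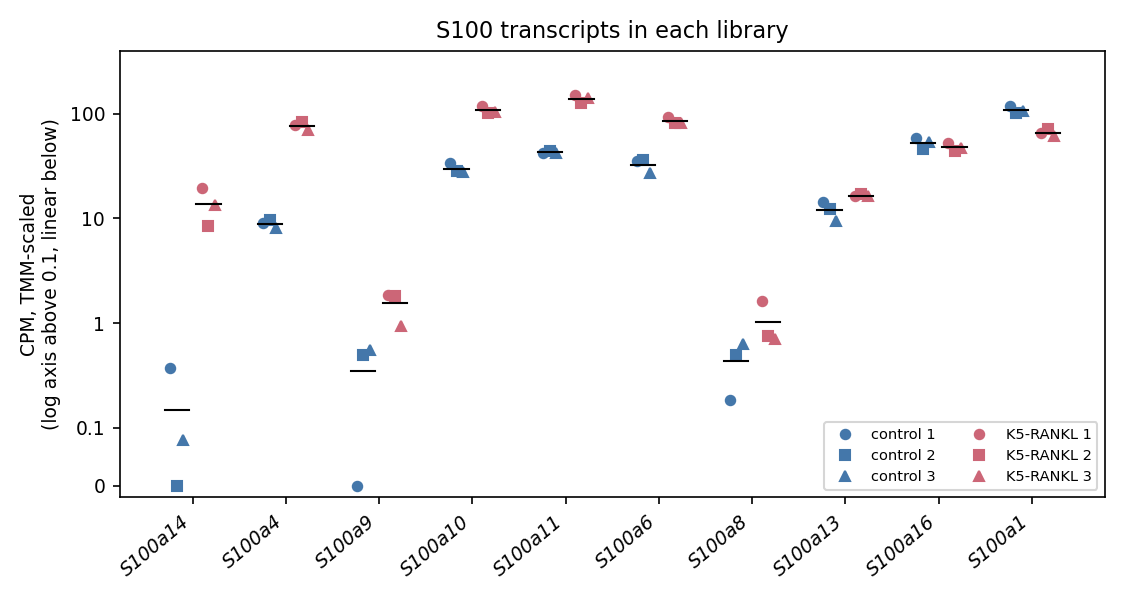
CPM on TMM-scaled library sizes (y axis, log above 0.1 and linear below) of the 10 S100 transcripts, ordered by log2 fold change, in 3 control (blue) and 3 K5-RANKL (red) libraries; each point is 1 library and short bars mark group means. S100a14 goes from at most 0.369 CPM in control pools to between 8.45 and 19.6, S100a1 is, on this scale, the one member whose K5-RANKL pools all lie below its controls, and S100a16 is the one member whose groups overlap.

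S100a10 and S100a11 encode partners of annexin A2 and annexin A1 at membranes. S100a10 stood at 33.6, 28.1 and 27.9 CPM in control pools 1 to 3 and at 119, 102 and 104 CPM in K5-RANKL pools 1 to 3. Every K5-RANKL library was above every control, and S100a10 had a log2 fold change of 1.87 (higher, SE 0.09, 3.64-fold, edgeR adjusted p = 1.33e-11). S100a11 stood at 42.6, 44.5 and 41.7 CPM in control pools and at 150, 127 and 140 CPM in K5-RANKL pools. The groups were far apart, and S100a11 rose by 1.70 (SE 0.08, 3.24-fold, edgeR adjusted p = 8.67e-12). S100a11 has a pseudogene, S100a11-ps, identical to it at 93.7% of 303 aligned bases, so some of its reads may have been placed there or dropped; the pseudogene is not analysed here. The counts of S100a10 relative to those of S100a11 in the same library were 0.788, 0.631 and 0.668 in control pools and 0.796, 0.804 and 0.743 in K5-RANKL pools, so the pair rose with overlapping ratios (exact permutation test, two-sided, p = 0.2, adjusted 0.2 over 13 such ratios).

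S100a6, encoding calcyclin, a protein of proliferating and stromal cells that binds annexin A11 and the ubiquitin ligase adaptor CacyBP, stood at 35.1, 36.1 and 26.9 CPM in control pools. In K5-RANKL pools it stood at 93.6, 80.7 and 81.4 CPM. The lowest K5-RANKL library was more than 2 times the highest control, and S100a6 rose by 1.39 (SE 0.10, 2.62-fold, edgeR adjusted p = 9.81e-09).

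S100a4, encoding a regulator of nonmuscle myosin and cell motility that is made by fibroblasts and leukocytes, had the widest change of the well-counted members. It stood at 8.94, 9.72 and 8.14 CPM in control pools and at 77.5, 82.8 and 69.7 CPM in K5-RANKL pools. The 3 libraries of each group lay close together, and S100a4 rose by 3.11 (SE 0.10, 8.61-fold, edgeR adjusted p = 1.08e-13), a log2 fold change above that of 97.5% of the genes tested. Relative to S100a16, by counts in the same library, it went from between 0.152 and 0.21 to between 1.48 and 1.87.

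Markers of leukocytes and stroma moved with S100a4, in data where 34.2% of all genes tested were called higher and 32.1% lower. All 11 macrophage and monocyte markers rose, led by Lyz2, and their sum went from between 398.5 and 475 CPM to between 2581 and 2701. Of 7 fibroblast markers 6 rose and Dcn did not pass; Col3a1 led the list, whose sum went from between 575 and 777 CPM to between 2676 and 3135. No marker of either list was at 0. S100a4 was 2.02% ± 0.275 of the macrophage sum in control pools and 2.88% ± 0.182 in K5-RANKL pools, and 1.36% ± 0.272 and 2.69% ± 0.352 of the fibroblast sum (SD, n = 3 each), with no overlap between groups in either. The fibroblast share depends on the markers summed: Col3a1 rose by log2 3.13, close to the 3.11 of S100a4, while the others had smaller values. Dcn had means of 245 CPM in control pools and 226 CPM in K5-RANKL pools. Of 5 T cell markers 4 rose, with sums of 47.9 to 52.9 and 102 to 114 CPM, led by Cd4, and S100a4 went from 17.6% ± 1.96 to 71.2% ± 2.45 of that sum. For S100a10 the same shares went down or overlapped: it was 6.78% ± 1.43 and 4.09% ± 0.337 of the macrophage sum, and 4.56% ± 1.16 and 3.78% ± 0.0432 of the fibroblast sum, the latter with overlap. S100a11 went from 9.68% ± 0.961 to 5.24% ± 0.477 of the macrophage sum. The part of these cell types in the S100 values was not tested.

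S100a14, encoding an epithelial member with a degenerate calcium loop, was nearly missing from controls. It held 4, 0 and 1 counts in control pools 1 to 3 (0.369, 0 and 0.0782 CPM) and 473, 158 and 289 counts in K5-RANKL pools (19.6, 8.45 and 13.5 CPM). K5-RANKL 2 was lowest of its group, and every K5-RANKL library was far above all controls. S100a14 rose by 6.49 (SE 0.79, edgeR adjusted p = 0.000751), and the ratio of summed counts, scaled for library size, was 96.9 (95% counting interval 41.4 to 299). Without control 1, which held 4 of the 5 control counts, the fitted value was 8.11 (edgeR adjusted p = 0.00492) and the ratio 329, with a counting interval from 58.9 to 13000, so the size is uncertain while the direction was the same in all 14 alternatives tried. Since S100a14 passed the filter only through the K5-RANKL pools, its call is no support of its own.

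The summed markers of basal and squamous epithelium were lowest in K5-RANKL 2 within their group, as S100a14 was. All 7 tested of 8 such markers were called higher, 2 of them (Krt6a and Dsg3) after passing the filter only through the K5-RANKL pools. This leaves 5 others that rose, beside 34.2% of all genes tested. None of the 8 was at 0 in every library. Their sum was between 98.7 and 103.8 CPM in control pools and 974.8, 442 and 889 CPM in K5-RANKL pools 1 to 3, with K5-RANKL 2 lowest. Krt5 led the list. Of the 7 tested, 6 were below the mean of the other K5-RANKL pools in K5-RANKL 2. Krt6a was highest there, at 0.913, 1.71 and 0.839 CPM in K5-RANKL pools 1 to 3. Tnfsf11 was also lowest in K5-RANKL 2 (701.5, 405 and 723 CPM), where the acinar sum was highest of its group (168800 CPM). As a share of that sum S100a14 was 0.355, 0 and 0.0784% in control pools and 2.01, 1.91 and 1.52% in K5-RANKL pools. Within the K5-RANKL group the share varied less than S100a14 itself, and it did not overlap with that of control pools, which rests on 5 counts, 4 of them in control 1. The part of basal cells in the S100a14 values was not tested. Of the 6 markers of simple epithelium 5 rose and Krt7 fell (log2 −0.19, but 0.81 by library totals), with sums of 1028 to 1088 and 1495 to 1583 CPM and Krt18 in the lead.

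S100a16, a widely expressed epithelial and adipose member, stood at 59.0, 46.2 and 53.5 CPM in control pools and at 52.3, 44.2 and 47.0 CPM in K5-RANKL pools. The groups overlapped and the fitted log2 difference of −0.15 (SE 0.09) did not pass (edgeR adjusted p = 0.177). Without control 2 it was −0.23 and was called (edgeR adjusted p = 0.0414), and by library totals it turned to 0.86 (edgeR adjusted p = 6.15e-08). S100a16 and S100a14 are neighbours, with the end of S100a14 at 90528837 and the start of S100a16 at 90537254.

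S100a1 is a regulator of calcium handling best known from heart and skeletal muscle, where it binds ryanodine receptors and the calcium pump SERCA2. It was the one member that fell on the TMM scale. Controls held 119, 103 and 106 CPM and K5-RANKL pools 66.0, 71.1 and 61.2 CPM. The groups did not overlap, and S100a1 fell, by a log2 fold change of −0.72 (SE 0.08, edgeR adjusted p = 4.23e-07). By library totals it was higher by 0.27 (SE 0.09, edgeR adjusted p = 0.00671), so its direction rests on the scaling. The 6 skeletal muscle markers, led by Myh4, summed to 72.1, 8.93 and 90.7 CPM in control pools and 163, 192 and 116 CPM in K5-RANKL pools, and none passed the edgeR test (1 of the 6 at an unadjusted p under 0.05; DESeq2 called 1 and limma voom 6 of them higher). The part of muscle in the S100a1 values was not tested. Acinar markers fell further than S100a1 did, and S100a1 relative to their sum was 0.0177% ± 3.35e-05 in control pools and 0.049% ± 0.00775 in K5-RANKL pools (SD, n = 3 each).

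S100a13, encoding a protein that takes part in the release of FGF1 and interleukin 1 alpha, stood at 14.3, 12.2 and 9.39 CPM in control pools and at 16.3, 17.01 and 16.3 CPM in K5-RANKL pools. Controls were spread more widely than K5-RANKL pools, and the groups did not overlap. S100a13 rose by 0.48 (SE 0.13, 1.39-fold, edgeR adjusted p = 0.00284); the value was 0.31 without control 3. Against S100a1, with which it shares the start region printed above, its counts were 0.12, 0.119 and 0.0884 in control pools and 0.247, 0.239 and 0.266 in K5-RANKL pools. This ratio does not depend on the scaling, it was 2.32 times higher in K5-RANKL pools, and the groups did not overlap (exact permutation test, two-sided, p = 0.1, adjusted 0.108, where 0.1 is the smallest p that 3 against 3 can give).

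**Figure D2:**
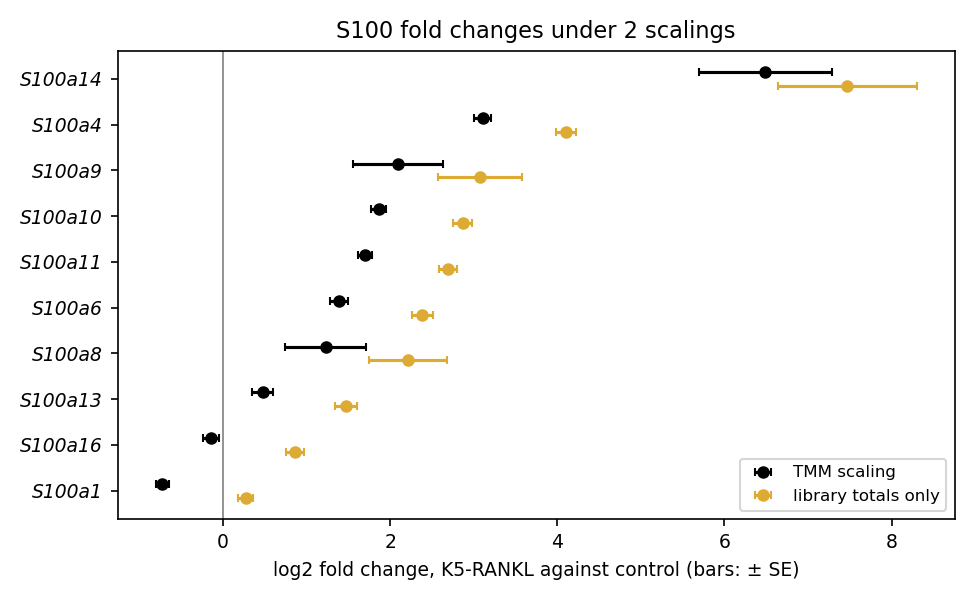
Log2 fold change of each S100 transcript in K5-RANKL against control (x axis; bars are ± SE), with TMM scaling (black) and by library totals only (yellow). S100a1 and S100a16 lie at −0.72 and −0.15 with TMM and at 0.27 and 0.86 by library totals; the other members lie above 0 in both.

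S100a8 and S100a9, the calprotectin genes, were rare transcripts in both groups. S100a8 held 2, 5 and 8 counts in control pools (0.184, 0.491 and 0.626 CPM) and 39, 14 and 15 counts in K5-RANKL pools (1.62, 0.749 and 0.699 CPM). The highest control and the lowest K5-RANKL library lay close together, without overlap. S100a8 rose by 1.23 (SE 0.48, edgeR adjusted p = 0.0342), but it did not pass without control 1, control 2 or K5-RANKL 1 (edgeR adjusted p = 0.147, 0.075 and 0.233), with DESeq2 (adjusted p = 0.0794) and with limma voom (adjusted p = 0.0993); over all alternatives its adjusted p ran from 0.000148 to 0.233. S100a9 held 0, 5 and 7 counts in control pools (0, 0.491 and 0.548 CPM) and 45, 34 and 20 counts in K5-RANKL pools (1.87, 1.82 and 0.932 CPM). K5-RANKL 3 was lowest but above every control, and S100a9 rose by 2.10 (SE 0.54, 4.28-fold, edgeR adjusted p = 0.00342). The call was kept in all 13 alternatives that could test it, which refit the same libraries. S100a8 and S100a9 both passed the filter only through the K5-RANKL pools, so these calls are no support of their own. A count of 3 was worth 0.235 to 0.295 CPM in control pools, so both genes were near the limit of detection there. The ratio of S100a9 to S100a8 counts, with 0.5 added to each, was 0.2, 1.0 and 0.882 in control pools and 1.15, 2.38 and 1.32 in K5-RANKL pools; the groups did not overlap (exact permutation test, two-sided, p = 0.1, adjusted 0.108), on as few as 0 to 8 counts a gene in control pools. The log2 difference of this ratio was 1.45, and 0.71 without control 1.

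Neutrophil markers were rare too. Of 11 listed markers found among the counts, 3 had enough counts to test, Csf3r, Cxcr2 and Il1r2. All 3 rose, beside 34.2% of all genes tested. The sum of the list was 3.87 to 5.09 CPM in control pools and 14.2 to 15.3 CPM in K5-RANKL pools. Stfa2l1 was at 0 in all libraries. Of the untested markers, Mpo, Elane, Ngp and Camp had group means of at most 0.269 CPM with overlapping groups, and Mmp8, Retnlg and Cebpe went from means of 0.0568, 0.0588 and 0 CPM to 0.334, 0.341 and 0.199 CPM without overlap. With no filter on low counts these last 3 were also called higher by edgeR (adjusted p = 0.0266, 0.0272 and 0.0132). S100a8 was 9.31% ± 4.01 of the neutrophil sum in control pools and 6.85% ± 3.26 in K5-RANKL pools, and S100a9 7.21% ± 6.25 and 10.4% ± 3.65 (SD, n = 3 each), with overlapping groups in both. The part of neutrophils in the rise was not tested.

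Ordered by log2 fold change the members ran S100a14, S100a4, S100a9, S100a10, S100a11, S100a6, S100a8, S100a13, S100a16 and S100a1. S100a14 lay above S100a4 by 4.24 combined standard errors, S100a13 above S100a16 by 3.999, and S100a16 above S100a1 by 4.73. S100a11 lay above S100a6 by 2.35 combined standard errors. The other neighbours in this order were within 2 combined standard errors of each other, so their places are not settled. Combined standard errors treat genes as independent although they come from the same libraries. Each SE was taken as the absolute log2 fold change over the square root of the edgeR F statistic. These distances are a description, not a test. S100a14 passed the filter only through the K5-RANKL pools, and its log2 fold change ran from 5.995 to 8.11 on leaving out 1 library. Its distance from S100a4 is therefore uncertain.

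Ratios within a library need no scaling, and S100a16 served as the common denominator. The ratios of 8 members to S100a16 were higher and that of S100a1 lower in K5-RANKL pools, and none of the 9 overlapped between groups (exact permutation test, two-sided, p = 0.1 for each, adjusted 0.108 over 13 ratios). By CPM, 70.4% of all genes tested had no overlap, and the share for ratios to S100a16 over all genes was not computed. S100a14, S100a9 and S100a8 passed the filter only through the K5-RANKL pools, so their ratios could hardly overlap. S100a10 relative to S100a16 went from between 0.52 and 0.607 to between 2.22 and 2.30, and S100a11 from between 0.722 and 0.962 to between 2.86 and 2.99. S100a1 relative to S100a16 went from between 1.99 and 2.22 to between 1.26 and 1.61. These ratios show unequal change and do not show that S100a16 stood still.

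**Figure D3:**
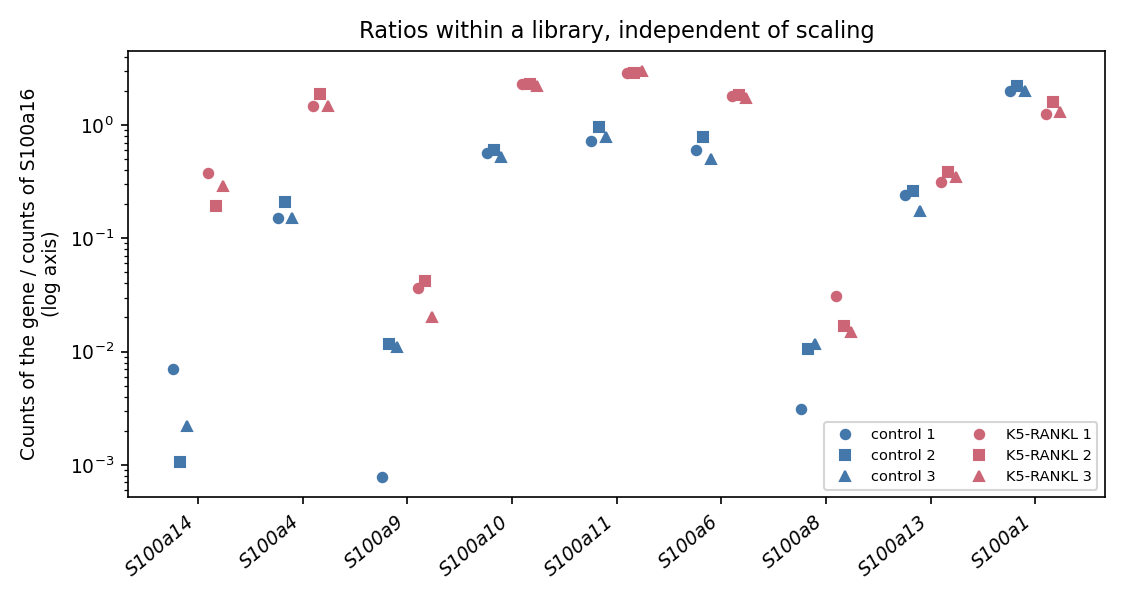
Counts of each S100 gene divided by the counts of S100a16 in the same library (log axis), for 3 control (blue) and 3 K5-RANKL (red) libraries; 0.5 was added to both counts for S100a14 and S100a9, which have a control at 0. S100a4 moves from between 0.152 and 0.21 to between 1.48 and 1.87, and no gene shown has overlapping groups.

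Levels can be compared between genes only per transcript length, here in CPM per kilobase of the median coding transcript of GENCODE. In controls S100a1 was the most abundant member, at 174 ± 13.3 CPM per kilobase, followed by S100a11 at 84.0 ± 2.77 (SD, n = 3 each). S100a16, S100a6 and S100a10 came next at 58.6 ± 7.09, 54.8 ± 8.46 and 51.3 ± 5.55 CPM per kilobase, within each other's spread, and S100a4 and S100a13, at 17.9 ± 1.59 and 16.7 ± 3.44, did not separate either. S100a8, S100a9 and S100a14 were lowest, at 0.892 ± 0.466, 0.672 ± 0.584 and 0.163 ± 0.212 CPM per kilobase. In K5-RANKL pools S100a11 was first, at 272 ± 22.8 CPM per kilobase, S100a10 came next at 187 ± 16.3, and S100a4 and S100a6 followed at 154 ± 13.2 and 143 ± 12.1 with overlapping libraries. S100a1 followed at 105 ± 7.84 CPM per kilobase, before S100a16 at 53.0 ± 4.54, S100a13 at 23.1 ± 0.586 and S100a14 at 15.1 ± 6.12. S100a9 and S100a8 were last, at 2.99 ± 1.02 and 2.10 ± 1.06.

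The make-up of the S100 pool changed with these levels. The 10 members summed to 459 ± 30.2 CPM per kilobase in control pools and 957 ± 59.2 in K5-RANKL pools (SD, n = 3 each), with no overlap. S100a1 supplied 37.9% ± 1.30 of the sum in control pools and 11.04% ± 1.06 in K5-RANKL pools, and S100a16 12.8% ± 1.19 and 5.53% ± 0.203. S100a4 went from 3.91% ± 0.377 to 16.1% ± 1.60, S100a10 from 11.2% ± 0.494 to 19.5% ± 0.538 and S100a11 from 18.3% ± 1.28 to 28.4% ± 1.53. With the longest transcript of each gene in place of the median, S100a1 had 38.7% and 11.1%. Shares of a pool do not depend on the library scaling, but they are tied to each other, since they add up to the whole.

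**Figure D4:**
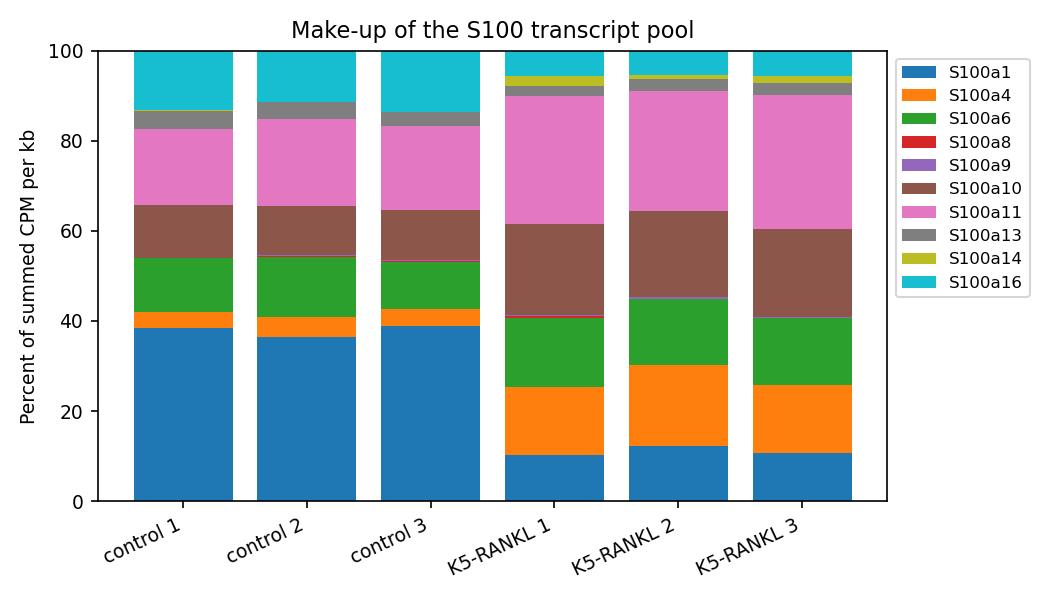
Percent of the summed CPM per kilobase of the 10 S100 members (y axis) that each member supplies, in 3 control and 3 K5-RANKL pools (bars). S100a1 takes 36.4 to 38.9% of each control bar and 10.3 to 12.2% of each K5-RANKL bar, and S100a4 grows from at most 4.34% to at least 15.2%.

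Apart from S100b and Tchh, which could be tested, the other S100 family genes were at or near 0. S100b, a marker of glia and adipocytes, stood at 2.03, 2.06 and 1.72 CPM in control pools and 1.25, 2.57 and 2.28 CPM in K5-RANKL pools, with overlap, and did not pass (log2 0.05, SE 0.28, edgeR adjusted p = 0.877). S100a3 held 3 counts in control pools and 11 in K5-RANKL pools, a ratio of 1.93 (95% counting interval 0.51 to 10.8), and S100a7a held 2 and 4, a ratio of 1.05 (0.151 to 11.6). S100g held 0 and 6 counts, S100a2 0 and 1, and S100a5, S100z and S100a7l2 had 0 counts in all 6 libraries. Among fused-type S100 genes, whose long products belong to the cornified layers of skin and mouth, Rptn held 0 counts in control pools and 21 in K5-RANKL pools, at least 3.68-fold higher against 3 counts over the group. Tchh did not pass (log2 0.50, SE 0.34, edgeR adjusted p = 0.21), Crnn held 0 and 2 counts, and Flg2, Hrnr and Tchhl1 were at 0. Of the 14 listed family genes found among the counts, 2 could be tested and 0 were called by edgeR, with 0 at an unadjusted p under 0.05; DESeq2 and limma voom also called 0, and edgeR without a filter called Rptn.

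Binding partners and cargo of S100 proteins went both ways. Of 19 tested of 22 listed, 12 rose, 5 fell and 2 did not pass, the median log2 fold change being 1.12, beside 34.2% and 32.1% of all genes. Anxa2, the membrane partner of S100A10, stood at 98.4, 95.03 and 91.6 CPM in control pools and 289, 214 and 255 CPM in K5-RANKL pools, and rose by 1.41 (SE 0.10, edgeR adjusted p = 2.47e-09). S100a10 counts relative to those of Anxa2 were 0.341, 0.295 and 0.304 in control pools and 0.413, 0.476 and 0.409 in K5-RANKL pools, 1.38 times higher, with no overlap (exact permutation test, two-sided, p = 0.1, adjusted 0.108). Anxa1, the partner of S100A11, rose by 1.14 (SE 0.08, edgeR adjusted p = 5.62e-10), from 78.5 ± 3.77 to 173 ± 9.84 CPM (SD, n = 3 each). Anxa11 and Anxa6, annexins bound by S100A6, fell by 0.57 and 0.49 (edgeR adjusted p = 4.62e-06 and 1.36e-05), but were higher by 0.43 and 0.50 by library totals. Cacybp, encoding the S100A6 partner CacyBP and named after its values were seen, rose by 0.31 (edgeR adjusted p = 0.0191), with overlapping groups. Anxa1 and Anxa2 rose under either scaling.

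Plat, encoding tissue plasminogen activator, whose activation of plasminogen the S100A10 and annexin A2 complex promotes at cell surfaces, stood at 5.16, 6.09 and 5.24 CPM in control pools and 76.1, 58.0 and 69.4 CPM in K5-RANKL pools. It rose by 3.63 (SE 0.13, 12.4-fold, edgeR adjusted p = 2.98e-13). The urokinase gene Plau and its receptor gene Plaur, chosen after their values were seen, rose by 1.33 and 1.68. Plg, encoding plasminogen itself, was at a mean of 0.0138 CPM in K5-RANKL pools and at 0 in control pools.

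Fgf1, a growth factor exported with the help of S100A13, went the other way from S100a13. It stood at 38.4, 39.7 and 39.0 CPM in control pools and 3.36, 3.64 and 3.45 CPM in K5-RANKL pools, with hardly any spread within groups, and fell by 3.49 (SE 0.10, edgeR adjusted p = 2.38e-14). Il1a and Syt1, further parts of that export route that were chosen after their values were seen, had log2 fold changes of 1.30 and 2.98 (both called higher), and Il1a passed the filter only through the K5-RANKL pools. Trp53, which binds several S100 proteins, rose by 1.12 (SE 0.09, edgeR adjusted p = 1.03e-08). Atp2a2, encoding the SERCA2 pump that S100A1 binds, fell by 0.86 (SE 0.07, edgeR adjusted p = 1.38e-08), and Trpv6, a calcium channel that S100A10 brings to the membrane, by 1.20 (SE 0.11, edgeR adjusted p = 5.48e-08). The ryanodine receptor gene Ryr1, named after its values were seen, was called higher, by 1.89 (SE 0.50, edgeR adjusted p = 0.0165). Ryr1 stood at 2.30, 0.393 and 3.05 CPM in control pools and 7.22, 9.63 and 5.4 CPM in K5-RANKL pools. Control 2 was its lowest, and there the 6 skeletal muscle markers were also below the other controls. The part of muscle in the rise of Ryr1 was not tested. Ryr2 had too few counts to test. By library totals Fgf1 was still lower, at −2.49, and Trpv6 did not pass. Atp2a2 turned to 0.14 in that setting and did not pass (edgeR adjusted p = 0.163).

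Among genes of receptors for released S100 proteins, Cd14, Tlr4, Mcam and Alcam rose, Bsg and Nptn fell on the TMM scale only, and Ager was rare. Ager, encoding RAGE, had too few counts to test, at 0.482 ± 0.178 CPM in control pools and 0.327 ± 0.22 CPM in K5-RANKL pools (SD, n = 3 each). Tlr4 rose by 0.51 (SE 0.12, edgeR adjusted p = 0.00126) from 13.2 ± 1.51 to 18.8 ± 2.48 CPM, its coreceptor gene Ly96 did not pass (log2 0.08, SE 0.21, edgeR adjusted p = 0.744), and Cd14 rose by 1.89 (SE 0.09, edgeR adjusted p = 1.08e-11) from 12.3 ± 1.01 to 45.6 ± 1.90 CPM. Ager, Tlr4 and Ly96 were chosen for their role in S100 signalling after their values were seen. Mcam and Alcam, also named after their values were seen, rose by 0.62 and 0.25 (edgeR adjusted p = 8.1e-05 and 0.00769). Both were higher by library totals too. Cd36, also listed, did not pass on the TMM scale (edgeR adjusted p = 0.435). Bsg and Nptn, receptors of S100A9 and S100A8, fell by 0.25 and 0.19 (edgeR adjusted p = 0.00433 and 0.034). Irak1 and Ticam1, kinase and adaptor of Toll-like receptors, fell by 0.57 and 0.54 (edgeR adjusted p = 1.79e-06 and 0.000194). By library totals these 4 were higher, by 0.74, 0.80, 0.42 and 0.46 in the same order.

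Calprotectin is known to carry arachidonic acid to the phagocyte NADPH oxidase, and genes of this enzyme were in the list. Cybb and Cyba, the membrane subunits, rose by 1.98 and 2.22 (SE 0.08 each, edgeR adjusted p = 2.07e-12 and 3.75e-13). Ncf4, a cytosolic subunit, rose by 2.66 (SE 0.12, edgeR adjusted p = 3.59e-12). In the whole list of receptors and signalling genes 13 of 19 tested rose, 4 fell and 2 did not pass, beside 34.2% higher and 32.1% lower over all genes, and the median log2 fold change was 0.62; by library totals 19 were higher and 0 lower. These oxidase genes are also phagocyte genes, and the macrophage markers given above rose with them; their part was not tested.

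Within 250 kb of the first block 10 other genes were tested, of which 3 were called higher (Dennd4b, Slc27a3 and Pglyrp4), 0 lower and 7 did not pass, beside 34.2% higher and 32.1% lower over all genes; the median log2 fold change was 0.09. Pglyrp4, encoding an antimicrobial peptidoglycan recognition protein and named after its value was seen, went from 2 counts in control pools to between 2.14 and 2.91 CPM, a ratio of 43.4 (95% counting interval 11.8 to 362), and passed the filter only through the K5-RANKL pools. The 7 that did not pass stood between −0.10 and 0.48. Near the second block only Tchh had enough counts.

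The genes whose pattern over the 6 libraries was closest to that of S100a4, by root mean square difference of log2 CPM (0.5 added) centred on each gene's mean, were Clec7a, Tnfsf18 and Ccl17, at 0.0755, 0.108 and 0.112. Clec7a, encoding the fungal receptor dectin-1 of myeloid cells, stood at 4.79, 5.11 and 4.62 CPM in control pools and 41.5, 40.9 and 37.7 CPM in K5-RANKL pools. For S100a9 the closest were Slamf7, Cd209d and Ptplad2, at 0.153, 0.208 and 0.222, and those given for S100a8 are Dpp6 and Nxnl2, at 0.172 and 0.179. Each of these genes has the group difference in its 6 values, and Tnfsf18, at 0.0962 CPM in control pools and 4.43 CPM in K5-RANKL pools, is near 0 in control pools, where the 0.5 added weighs most.

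Markers of other cells gave little beside the S100 genes, and their counts stand beside 34.2% higher and 32.1% lower over all genes. Of 4 B cell markers, led by Cd79a, 1 rose and 3 did not pass, with sums of 96.8 to 109 and 111 to 124 CPM. Of 5 endothelial markers, led by Pecam1, 2 rose, 1 fell and 2 did not pass, with sums of 117 to 137 and 140 to 147 CPM. Of 5 Schwann cell markers, led by Sox10, which ducts and acini also express, 1 rose, 2 fell and 2 did not pass, with sums of 134 to 151 and 124 to 132 CPM. None of the 5 adipocyte markers, led by Cfd, passed by edgeR (1 at an unadjusted p under 0.05; DESeq2 called 1 lower, limma voom 1 higher and 1 lower), with sums of 212 to 366 and 259 to 306 CPM.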

How the data were processed

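Poly(A) RNA of 3 control and 3 K5-RANKL libraries was made into libraries with a kit that marks strand, per the labels' protocols. What the authors deposited are raw read counts per gene. Reads were aligned with STAR to mm10, per the submitters' processing notes; the counting tool, its annotation and its strand setting are not named in the sources used here. Groups follow the genotype label, and replicate numbers only name libraries.

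Genes were filtered with filterByExpr (minimum count 10) and tested with edgeR 4.0.16 (R 4.3.3), TMM scaling and the robust two-sided quasi-likelihood F-test on all 6 libraries, with Benjamini-Hochberg adjustment over the 14044 genes tested; a gene was called at an adjusted p under 0.05. CPM use TMM-scaled library sizes, and values are mean ± SD over 3 libraries. Ratios within libraries were compared by exact permutation with SciPy 1.17.1. A count of 3 was the floor of detection, and 95% intervals of count ratios cover counting error only. Replicates of 1 group differed by more than sampling noise, with a chi-square of 6.26 to 38.3 per gene.

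Members and lists were chosen with earlier results of these data known. The text names every S100 family gene, the 5 called partners and receptors with the smallest p, those called against the direction of most, the most abundant marker of each cell list, markers at 0 in every library, and the 3 genes closest in pattern to S100a4, S100a8 and S100a9; others are said to be chosen after their values were seen or were named as examples. Some items that this rule takes in are not reported here. Positions, promoter windows and motifs come from RefSeq (GRCm38.p6), and transcript lengths from GENCODE. Promoter windows of S100a10 and S100a14 were not used here. Alternatives were other scalings, filters, DESeq2 1.42.0, limma 3.58.1 voom with quality weights, and leaving out each library.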

Additional observations from a re-analysis of the deposited data

How the results depend on the processing

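S100a4, S100a6, S100a9, S100a10, S100a11, S100a13 and S100a14 kept direction and call under every alternative that could test them (14 each, 13 for S100a9). Of these, S100a9 and S100a14 passed the filter only through the K5-RANKL pools, so their kept calls are no support of their own. S100a8 and S100a9 could not be tested at 50 counts in 3 libraries. S100a8 was not called with DESeq2 (log2 1.22, adjusted p = 0.0794) or voom (0.94, adjusted p = 0.0993), and leaving out 1 library moved it from 0.70 to 1.63, S100a16 between −0.23 and −0.064 and the number of members called lower from 1 to 2. By library totals S100a1 was 0.27 and S100a16 0.86, 0 members were lower, and 11733 genes were higher and 698 lower (94.4% of calls higher against 51.6% with TMM). In the same setting 2 other S100 family genes, 4 B cell, 5 endothelial, 3 Schwann cell, 6 skeletal muscle and 4 adipocyte markers were called higher, 1 partner was lower, and 0 receptor genes and 0 simple epithelial, endothelial or Schwann cell markers were lower. Without a filter 1 other family gene and 6 neutrophil markers were higher and 0 simple epithelial markers lower. DESeq2 called 1 skeletal muscle marker higher and 1 adipocyte marker lower, and voom 6 skeletal muscle and 1 adipocyte markers higher, 1 adipocyte marker lower and 0 simple epithelial markers lower. Leaving out 1 library gave 1 to 2 B cell, 0 to 1 adipocyte and 0 to 4 skeletal muscle markers higher, and 0 to 2 adipocyte, 1 to 2 Schwann cell, 0 to 1 endothelial and 0 to 1 simple epithelial markers lower. The log2 difference of the S100a9 to S100a8 ratio ran from 0.71 to 1.87. The turn of S100a1 and S100a16 by library totals follows the shift of the median of all genes; the cause of the other changes was not tested. No paired analysis was possible because the labels give no replicate numbers. Depth limits S100a8, S100a9 and S100a14 in controls, at 15, 12 and 5 counts in all.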

Other observations

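Krt6a, a keratin of activated and stratified epithelium chosen after its values were seen, held 0 counts in the 3 control libraries and 72 in the 3 K5-RANKL libraries, at least 12.6-fold higher against 3 counts over the group. As a share of the summed simple epithelial markers, S100a14 went from 0.0339, 0 and 0.00761% in controls to 1.26, 0.566 and 0.851% in K5-RANKL libraries. S100a10 and S100a11 rose relative to the same sum, from 2.81% ± 0.239 to 7.03% ± 0.571 and from 4.05% ± 0.132 to 9.00% ± 0.586 (SD, n = 3 each), and S100a6 from 3.08% ± 0.408 to 5.52% ± 0.449, with no overlap in any of the 3. Relative to the fibroblast sum S100a6 was lower in K5-RANKL libraries, at 2.97% ± 0.0527 against 5.02% ± 1.38, again without overlap. As for S100a4, this share depends on the markers summed. Col3a1 rose by log2 3.13 and Pdgfra by 0.69, Dcn did not pass, and S100a6 itself rose by 1.39.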
